A study of Mus musculus with 2 samples.

Results

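Transcripts of 10 genes for RNA-binding proteins were measured in mouse cerebral cortex: Elavl1, Elavl2, Elavl3 and Elavl4, Celf2, Celf4 and Celf5, Mbnl1 and Mbnl2, and Qk, the quaking gene. They were chosen by name as members of 4 families of splicing and RNA stability factors, and all 10 were found among the 55536 annotated genes. Total RNA was sequenced from left cortex of 14-day-old males of the F1 hybrid B6CASTF1/J, a cross of C57BL/6 with CAST; each library started from 300 ng of RNA with ERCC spike-ins, synthetic RNAs of known amount. There were 2 libraries, replicates 1 and 2 of a single group, with no treated or mutant counterpart, so every value is a level within normal tissue and no p-value is given. The labels list separate biosamples but 1 donor entry and 3 males, so whether the libraries came from separate animals is not stated and their spread may be technical. A two-sided exact sign-flip test over 2 libraries cannot go below p = 0.5.

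These proteins decide which exons of a pre-mRNA are kept, which polyadenylation site is used, and how long an mRNA lasts. Elavl proteins (the Hu proteins) bind AU-rich and U-rich RNA and mostly stabilize it; Elavl1 is made in nearly all cells, and Elavl2, Elavl3 and Elavl4 mainly in neurons. Celf proteins bind GU-rich RNA, and muscleblind (Mbnl) proteins bind GC dinucleotides flanked by pyrimidines through zinc fingers; the 2 families often act on the same exons in opposite ways, and Mbnl proteins are trapped by expanded CUG repeats in myotonic dystrophy. Quaking, a STAR protein with a KH domain, is best known from glia, where it controls the splicing, transport and stability of myelin mRNAs, and a mutation that lowers it in oligodendrocytes gives the quaking mouse its tremor.

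Depth was 28263225 counts in replicate 1 and 30862813 in replicate 2, and each of the 10 genes had at least 2221 counts in each library, so counting error was small for all of them. The libraries differed in markers of several cell types. All 10 markers of striatal projection neurons were lower in replicate 2, with a summed level of 642 TPM (a level per length, scaled to the same total in each library) in replicate 1 and 193 TPM in replicate 2 and a median log2 difference of -1.95. All 10 markers of myelinating oligodendrocytes were lower too, at 1146 and 750 TPM (median -0.56). Other lists went the opposite way. Choroid plexus markers summed to 34.9 and 126 TPM (5 of 6 higher, median 1.32). Ttr gave most of this sum, at 30.4 and 118 TPM, and only 3 of the 6 markers reached 1 TPM in both libraries. Kl differed by only 0.18 and Sostdc1 by -0.03 on the log2 scale. Red blood cell genes summed to 815 and 1265 TPM (5 of 5 higher, median 0.64). Markers of excitatory cortical neurons, which check the labelled tissue, were all detected and summed to 1588 and 1864 TPM. Pan-neuronal markers summed to 4611 and 4652 TPM (6 higher and 4 lower) and astrocyte markers to 1684 and 1732 TPM (5 higher and 5 lower), so neither list moved one way. In bulk tissue, fewer cells of a type and less RNA per cell cannot be told apart.

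All 10 genes were well expressed, over a range from 31.5 to 228 TPM. In the gene table, Celf2 and Celf4 were the highest and Elavl1 was the lowest. The sum of the 10 was 1084 TPM in replicate 1 and 1038.5 TPM in replicate 2, of which the 3 Celf genes gave 588 and 536 TPM. The Celf sum was above the sum of the 2 Mbnl genes by 1.94 ± 0.08 on the log2 scale (SD, n = 2, as for all errors below), which is 3.85-fold. Ordered by mean TPM, the genes ran Celf2, Celf4, Qk, Celf5, Mbnl2, Elavl3, Mbnl1, Elavl4, Elavl2 and Elavl1, and both libraries gave this order. Several places in this order depended on the quantification or on the transcripts counted. These were the order of Mbnl2 and Elavl3, of Elavl3 and Mbnl1, of Mbnl1 and Elavl4, of Elavl3 and Elavl4, and of Elavl4 and Elavl2. For 7 of the 9 neighbouring pairs the mean log2 ratio exceeded its SD in the gene table. Mbnl2 over Elavl3, Elavl3 over Mbnl1 and Elavl4 over Elavl2 were among these, although their order changed in another setting. The exceptions were Celf2 over Celf4 (0.18 ± 0.21) and Mbnl1 over Elavl4 (0.21 ± 0.29), whose levels did not differ beyond their spread.

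**Figure D1:**
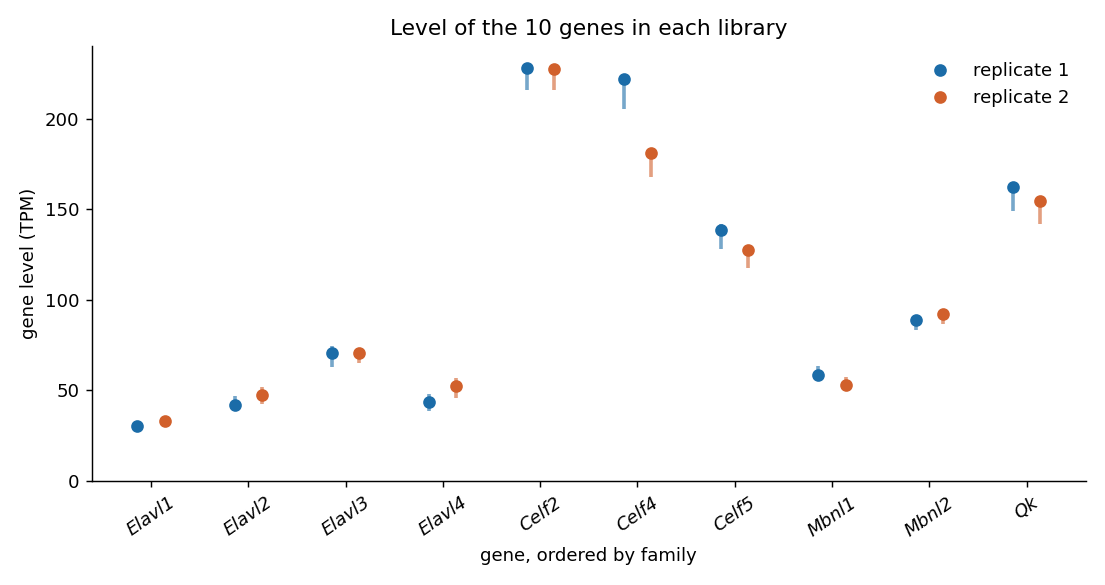
Gene level in TPM (linear axis) of the 10 genes in replicates 1 and 2; points are the deposited TPM and vertical lines the deposited interval of each estimate within its library. The Celf genes and Qk lie above 100 TPM in both libraries, the Elavl and Mbnl genes below it, and the intervals of the libraries are apart only for Celf4.

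Elavl1, which encodes HuR and lies at chr8:4285382-4325413 on the minus strand (GRCm38), reached 30.18 TPM in replicate 1 and 32.85 TPM in replicate 2. Even this lowest value was above 71.2% of the 12931 nuclear protein-coding genes that reached 1 TPM in both libraries, counting the gene itself. Ccl25, a chemokine gene that overlaps it on the opposite strand, was listed at 10.4 and 12.1 TPM; the use of strand in counting is not stated, so reads of this pair may have been shared. Elavl2 (HuB, chr4:91250763-91400785, minus strand) was at 41.98 and 47.32 TPM, and Elavl4 (HuD, chr4:110203722-110351909, minus strand) at 43.83 and 52.61 TPM. Both were higher in replicate 2 on this scale. Elavl3 (HuC, chr9:22015005-22052023, minus strand) had almost the same level in the libraries, at 70.74 and 70.71 TPM.

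Among the neuronal genes, Elavl3 led in the gene table and Elavl2 was lowest. Each of the 3 exceeded Elavl1 in both libraries of the gene table: Elavl3 by 1.16 ± 0.09 on the log2 scale, Elavl4 by 0.61 ± 0.10 and Elavl2 by 0.50 ± 0.04. Summed, the neuronal genes stood 2.37 ± 0.0017 above Elavl1, or 5.18-fold. The place of Elavl4 depended on the quantification. The log2 ratio of Elavl3 to Elavl4 was 0.56 ± 0.19 in the gene table and -0.27 in the second transcript table, which was derived from the reads without the alignments, so the pair changed order. Elavl4 was at 110 and 126 TPM there, against 97.0 and 98.4 TPM for Elavl3. Of the Elavl4 TPM there, Elavl4-211, a processed transcript of 869 nt, held 28.9% and 27.5%, and Elavl4-208, a coding fragment of 644 nt, held 23.2% and 31.9%. All levels ran higher in that table (its median ratio to the first was 1.56 and 1.54 in the libraries), but the ratio was highest for Elavl4 among the 10 genes, at 2.51 in replicate 1. Elavl2 was below Elavl4 by only 0.11 ± 0.06, and above it by 0.21 with protein_coding transcripts only. Elavl4 exceeded Elavl1 by only 0.18 in that setting. Complete coding transcripts held 69.4% and 61.7% of Elavl4 TPM in the first transcript table and 36.9% and 33.7% in the second, against 96% or more for Elavl1. By these transcripts alone, Elavl4 was only slightly above Elavl1 in the first table and below it in the second, and it was below Elavl3 in both.

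The Elavl transcripts fell into a simple and a mixed pair of genes. Elavl1 and Elavl3 were each dominated by 1 complete coding transcript. Elavl1-201 (5743 nt, 326 residues) took 77.3% and 69.3% of the Elavl1 TPM, and Elavl1-204, of 2317 nt with a coding region of the same length, took 21.2% and 27.1%. Elavl3-201 (5014 nt, 367 residues) took 81.9% and 83.0%. By contrast the highest transcript of Elavl2, Elavl2-208 (388 residues), held 27.7% and 25.5%, and that of Elavl4, Elavl4-203 (385 residues), held 29.9% and 29.9%. Elavl4-204 (366 residues) went from 23.9% in replicate 1 to 13.7% in replicate 2, and to 3.62% and 1.97% in the second table. Single transcripts of Elavl2 and Elavl4 were therefore uncertain: the second table put other transcripts first for both genes. Short entries also set part of their gene levels. Elavl2-216, a fragment of 425 nt, had 0 counts in replicate 1 and 39.61 in replicate 2, yet that gave it 5.99 TPM, more than the whole gap between the libraries in Elavl2 TPM.

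Elavl2 and Elavl4 carry an alternative exon of the same length between their RNA recognition motifs, in the hinge region whose variants are known to affect where Hu proteins reside. The exons are shown because the genes differed in its inclusion. They are 39 nt each, from the minus strand of GRCm38 as in the GENCODE M21 transcripts, at chr4:91254141-91254179 and chr4:110209740-110209778. Of the 39 bases 33 are identical, and the 6 in capitals differ.
Elavl2: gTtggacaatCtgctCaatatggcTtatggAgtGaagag
Elavl4: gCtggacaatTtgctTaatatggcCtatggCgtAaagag
Inclusion is the TPM of transcripts with the exon as a percent of those that include or skip it. The Elavl2 exon was included in 75.5% in replicate 1 and 85.2% in replicate 2, and in 82.6% and 92.6% in the second table. The Elavl4 exon was included in 97.0% and 96.7%, and in 100% and 95.4% in the second table. In both tables and both libraries Elavl2 was thus the gene with more estimated skipping. Skipping could be assigned to 3 annotated transcripts of Elavl2 but to only 1 of Elavl4, and junction reads were not examined.

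Across their leading complete coding transcripts, the neuronal proteins were most alike for Elavl2 and Elavl4, with 89.1% identical residues, against 82.2% for Elavl3 with either. Elavl1 shared 71.0% to 73.9% with the 3 neuronal proteins. The longest run of identical coding bases between any 2 Elavl transcripts was 29 nt (Elavl3 and Elavl4); between Mbnl1 and Mbnl2, whose proteins shared 77.1% of residues, it was 26 nt, and between Celf4 and Celf5 (66.1%) also 26 nt.

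Celf2 (chr2:6539694-7509563, minus strand), a regulator of splicing and polyadenylation that is active in brain, heart and lymphocytes, was at 227.64 and 227.55 TPM. It is the largest of the loci at 970 kb, and 3 annotated genes inside it on the same strand (Gm10855, Gm10115 and Gm26315) were listed at 2.57 to 7.99 TPM. Celf4 (chr18:25477632-25754157, minus strand), which is enriched in excitatory neurons and whose loss causes seizures in mice, was at 221.79 TPM in replicate 1 and 181.06 TPM in replicate 2. Celf5 (chr10:81459227-81482709, minus strand), a brain-enriched member whose function is less well known, was at 138.58 and 127.28 TPM. Celf2 was thus level between libraries, and Celf4 had the widest gap of the 10 genes in TPM. Celf4 exceeded Celf5 by 0.59 ± 0.12 on the log2 scale in TPM.

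Celf5 differed between the libraries in TPM but not in counts. Its counts, normalized for depth, differed by 0.00 between the libraries on the log2 scale. The gap in TPM came with Celf5-207, a retained-intron entry of 605 nt, which held 34.50 TPM on 332 counts in replicate 1 and 24.13 TPM on 248 counts in replicate 2. Celf5-201, the complete coding transcript of 4391 nt and 395 residues, held 80.21 and 82.84 TPM, or 57.9% and 65.1% of the gene. Celf4-202 (504 residues) took 47.8% and 52.4% of Celf4. Celf2 was the most divided of the family: its highest entry was Celf2-209, an incomplete fragment of 630 nt with 21.1% and 24.2% of TPM, on only 3.20% and 3.77% of the gene's counts. By counts the highest was Celf2-214 (8856 nt, 478 residues), with 32.2% and 27.7%.

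Celf2 had an alternative coding exon of 144 nt and one of 41 nt with mixed use, and Celf4 had one that occurs in versions of 144 and 84 nt. The Celf2 exon of 144 nt was included in 78.5% and 80.8% of including plus skipping TPM. In Celf4 the version of 144 nt held 59.9% and 65.1%, the version of 84 nt, from a second splice site within it, 26.5% and 24.6%, and skipping 13.6% and 10.3% of the TPM of the 3 outcomes. The Celf2 exon of 41 nt, which shifts the reading frame, was included in 24.8% and 20.4%, by a single transcript annotated as a target of nonsense-mediated decay, Celf2-228. That transcript held 34.25 TPM in replicate 1 and 26.32 TPM in replicate 2. The second table gave 24.2% and 25.0% for this exon, so its minority share did not depend on the table.

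Mbnl1 (chr3:60472830-60629750, plus strand), the muscleblind gene best known from muscle, was at 58.33 and 52.86 TPM. Mbnl2 (chr14:120275669-120431697, plus strand), whose loss in mice gives splicing defects in brain, was at 88.68 and 91.86 TPM. Mbnl2 was the higher of the pair in each library, by 0.70 ± 0.14 on the log2 scale or 1.62-fold in TPM. The second table kept the direction, with a smaller gap of 0.34. Mbnl3, the third gene of the family, was listed at only 0.33 and 0.31 TPM. In TPM no transcript of Mbnl1 had a large share: the highest, Mbnl1-201 (381 residues), took 27.7% and 22.7%. Complete coding transcripts together gave 36.5 ± 1.86% of the gene's TPM, the lowest such share of the 10 genes. By counts, however, Mbnl1-201 held 56.0% and 44.4% of the gene. In Mbnl2 the complete transcripts Mbnl2-204 (355 residues) and Mbnl2-202 (385 residues) led with 36.9% and 37.7%, and 29.8% and 33.0%. The second table put Mbnl2-201 first instead.

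Mbnl1 and Mbnl2 share a pair of alternative exons near the end of the coding region, and their splicing was mixed in both genes. The exon of 54 nt is the one known to favour nuclear localization of Mbnl proteins, and it is regulated by Mbnl proteins themselves. It lies at chr3:60614683-60614736 in Mbnl1 and chr14:120395712-120395765 in Mbnl2, the one of 36 nt at chr3:60621423-60621458 and chr14:120403336-120403371, all on the plus strand of GRCm38 with the bases of the GENCODE M21 transcripts. They are shown because the exons are nearly equal in sequence, while those of 36 nt, unlike those of 54 nt, differed in use in every library and table; capitals mark the bases that differ between the genes, 8 of 54 and 5 of 36.
Mbnl1 54 nt: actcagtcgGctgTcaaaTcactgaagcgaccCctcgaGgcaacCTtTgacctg
Mbnl2 54 nt: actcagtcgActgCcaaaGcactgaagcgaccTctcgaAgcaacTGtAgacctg
Mbnl1 36 nt: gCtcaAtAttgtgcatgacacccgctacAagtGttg
Mbnl2 36 nt: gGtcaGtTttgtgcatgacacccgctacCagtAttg

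The exon of 54 nt was included in 43.6% and 51.9% of Mbnl1 and in 50.9% and 49.5% of Mbnl2. The ranges of the genes overlapped in this table, near equal amounts of inclusion and skipping. In the second table Mbnl2 was higher, at 62.2% and 67.8% against 50.03% and 56.1% for Mbnl1. The exon of 36 nt behaved otherwise. It was included in 84.8% and 70.1% of Mbnl1 but in only 32.8% and 36.1% of Mbnl2, and the second table gave 77.3% and 71.8% against 37.0% and 36.7%. Mbnl1 was above Mbnl2 in every library and table. With protein_coding transcripts only, mean inclusion in the first table was 77.4% in Mbnl1 and 41.9% in Mbnl2. An exon of 95 nt further on, which shifts the frame of the protein's end, was included in 89.6% and 83.4% of Mbnl1 and in 82.7% and 81.6% of Mbnl2. The Mbnl2 value rested on 1 skipping entry, Mbnl2-205, which the second table listed at 0 and so gave full inclusion. In the first table this entry was also part of the skipping TPM of the Mbnl2 exon of 36 nt.

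**Figure D2:**
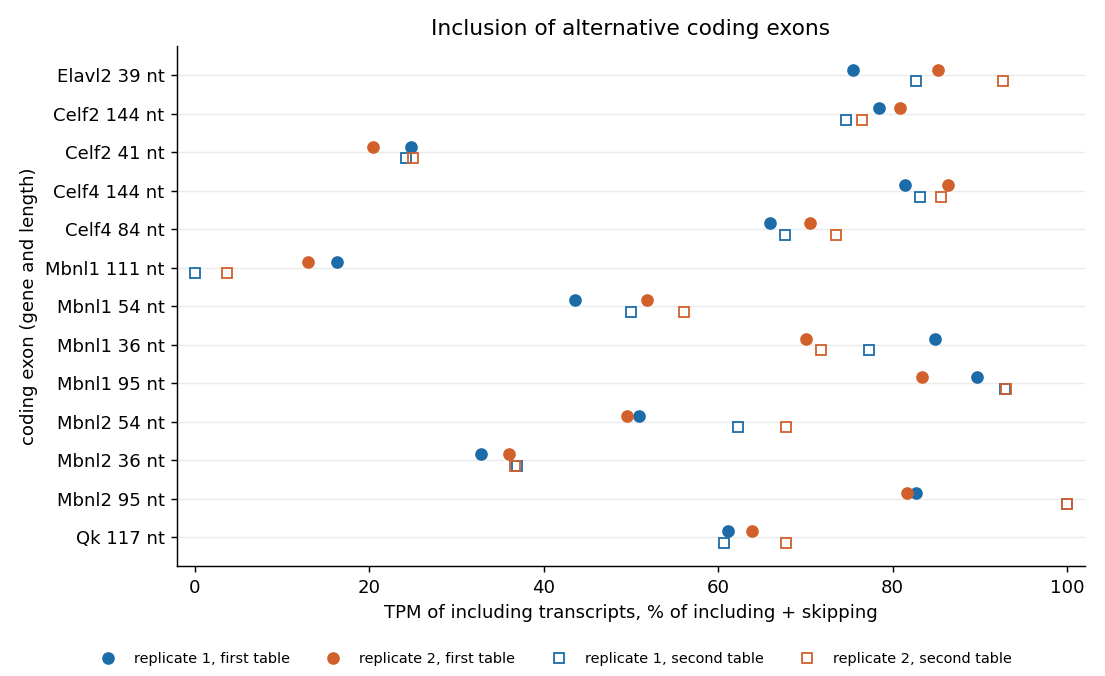
Inclusion of the 13 alternative coding exons with mixed use, as the percent of TPM in including over including plus skipping transcripts; circles are the first and squares the second transcript table, blue replicate 1 and orange replicate 2. The 144 and 84 nt versions of the Celf4 exon are each plotted against skipping alone. The exon of 36 nt is at 70.1% or more in Mbnl1 and at 37.0% or less in Mbnl2, and the Mbnl1 exon of 111 nt falls from 16.3% and 13.0% to 0% and 3.73% between the tables.

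In all, 23 coding exons of the 10 genes were spanned by an annotated intron of another transcript, and 13 of them, counting both versions of the Celf4 exon, were included in 5 to 95% with at least 5 TPM in both libraries. Elavl1, Elavl3, Elavl4 and Celf5 had none within these limits. The difference between the libraries in the first table was widest for the Mbnl1 exon of 36 nt, with an SD of 10.4 percentage points, and narrowest for the Mbnl2 exon of 95 nt, with 0.757. The Mbnl1 exon of 111 nt was included only in Mbnl1-210, a fragment of 576 nt with 64.37 and 54.24 counts, and its share nearly vanished in the second table.

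Qk (chr17:10202601-10319854, minus strand) was at 162.40 TPM in replicate 1 and 154.40 TPM in replicate 2, on 11649 and 12260 counts. It exceeded Mbnl2 by 0.81 ± 0.09 on the log2 scale in TPM. Its proteins share their RNA-binding part and differ only at the end, by alternative splicing of the last exons. The 5 form (341 residues) carries a nuclear localization signal, whereas the 6 and 7 forms (319 and 325 residues) lack it and are found mostly in the cytoplasm. The first 934 coding bases were the same in all 3. The bases that follow tell the forms apart and are printed for that reason, from the minus strand of GRCm38 as in GENCODE M21, with the stop codon in capitals. The 5 form ends at chr17:10213359-10213433 joined to chr17:10209615-10209631, the 7 form at chr17:10215431-10215474 and the 6 form at chr17:10214169-10214194.
Qk 5 form: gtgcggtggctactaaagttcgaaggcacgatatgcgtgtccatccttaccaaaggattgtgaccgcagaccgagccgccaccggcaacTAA
Qk 6 form: gtatggctttcccaacgaaaggcTAA
Qk 7 form: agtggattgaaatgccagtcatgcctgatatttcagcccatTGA

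The 6 form was the highest and the 5 form the lowest in both libraries. Transcripts with the end of the 6 form (Qk-206, and Qk-202, which is annotated as a target of nonsense-mediated decay) held 59.53 and 60.32 TPM. The 7 form (Qk-201) held 29.81 and 29.89 TPM, and the 5 form (Qk-204) 6.58 and 5.49 TPM. The log2 ratio of the 6 form to the 7 form was 1.01 ± 0.01, or 2.01-fold, and that of the 7 form to the 5 form was 2.31 ± 0.19, or 4.97-fold. As shares of all Qk TPM the 5, 6 and 7 forms took 3.80 ± 0.351%, 37.9 ± 1.71% and 18.9 ± 0.710%. The rest, 40.9% and 38.0%, lay in entries with no annotated stop codon, which cannot be given to a form.

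Most of that rest was Qk-205, a fragment of 650 nt, with 60.93 and 54.15 TPM on 638 and 605 counts. It was the highest single Qk entry in TPM but held only 5.47% and 4.94% of the gene's counts. It was also the only entry that skipped an exon of 117 nt in the shared part, whose inclusion of 61.2% and 63.9% therefore rested on this fragment. By share of expected counts, which weights long transcripts more, the 5, 6 and 7 forms took 8.37%, 53.3% and 32.5%. The order of the forms was the same in the second table, at 3.22%, 33.0% and 26.5% of TPM. The 6 form exceeded the 7 form by only 0.34 and 0.29 on the log2 scale there. That lead depended on counting Qk-202 with the 6 form. Without it, Qk-206 was below Qk-201 in both libraries of the second table, but above it in both of the first. Low use of the 5 form was common to both tables. The lead of the 6 over the 7 form varied in size, and for complete coding transcripts alone it reversed between the tables.

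**Figure D3:**
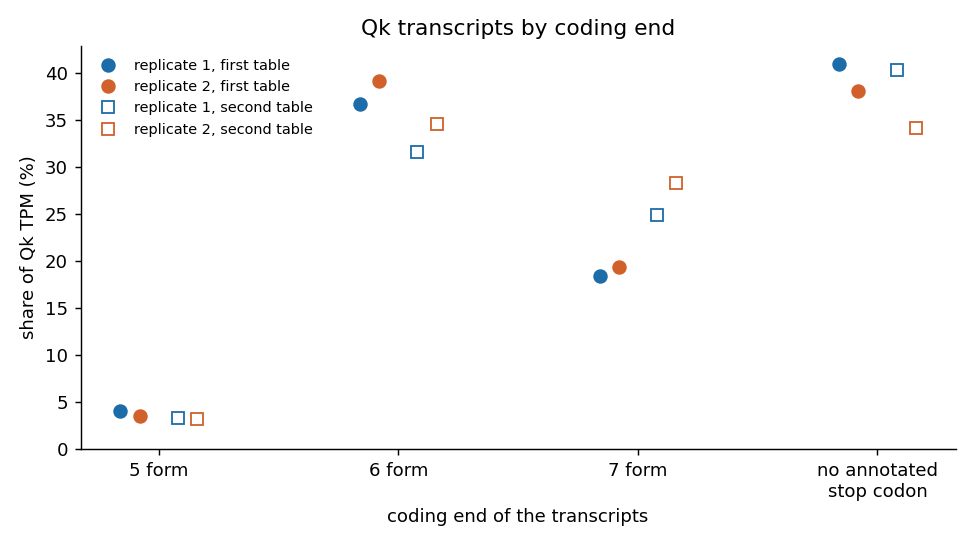
Share of Qk TPM (percent) in transcripts with the coding end of the 5, 6 or 7 form, or with no annotated stop codon; filled circles are the first and open squares the second transcript table, blue replicate 1 and orange replicate 2. The 5 form lies between 3.17% and 4.05% in all 4 sets of values, below the 7 form and the 6 form.

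The genes differed widely in how much of their TPM came from complete coding transcripts. The share was 97.4 ± 1.46% for Elavl1 and 92.4% for Elavl3, between 65.6% and 78.5% for Elavl2, Elavl4, Celf4, Celf5 and Mbnl2, 52.1% for Qk, 43.4% for Celf2 and 36.5% for Mbnl1. In the second table the share for Elavl4 was far lower, at 36.9% and 33.7%, below Celf2 (42.5% and 45.8%), and Celf5 was higher, at 90.6% and 82.8%. The other TPM lay in incomplete fragments, retained introns and transcripts with no coding region. Of the 122 annotated transcripts of the 10 genes, 58 were complete coding and 21 were incomplete coding fragments. Only for Elavl1, Elavl3 and Celf5 did 1 transcript exceed 50% of TPM in both libraries. Shares of TPM give short entries more weight than shares of counts do. By counts Celf4-202 held 72.6% and 73.9% of Celf4, and Mbnl1-201 56.0% and 44.4% of Mbnl1.

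**Figure D4:**
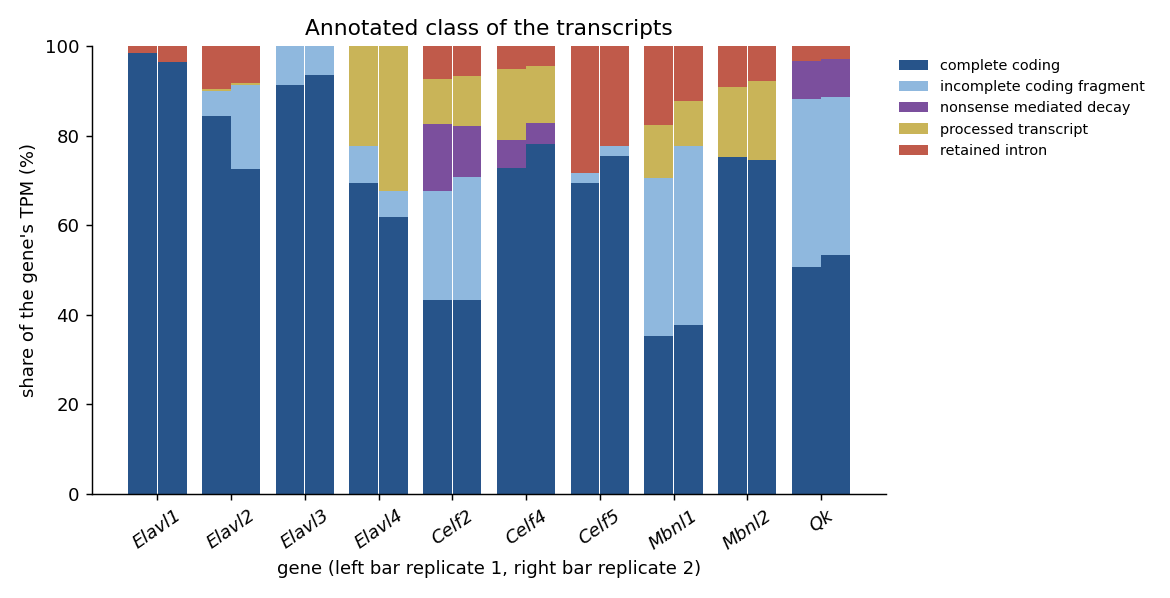
Share of each gene's TPM (percent, bars from 0 to 100) by annotated class of transcript in the first table, with replicate 1 as the left and replicate 2 as the right bar of each gene. Complete coding transcripts make up nearly all of Elavl1 and Elavl3, and less than 50% of Celf2 and Mbnl1 in both libraries.

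Between the libraries, the levels of these genes were close. On depth-normalized counts (log2 CPM, replicate 2 minus replicate 1) the differences ran from -0.19 for Celf4 to 0.12 for Elavl4. None of the 10 passed 1.5-fold, against 11.0% of the 18965 genes tested, but that set reaches down to 10 counts. The share fell to 2.92% when the mean count had to reach 100. When it had to reach 1000, the differences ran from -0.23 to 0.28 between the 5% and 95% points, inside the 1.5-fold limits. The lack of any such gene among the 10 was therefore not unusual at their depth. The median absolute difference was 0.03 for the 10 genes, 0.14 for all genes and 0.08 for the 5422 genes whose mean count was 1000 or more, the set closest to these genes in depth. Deposited TPM intervals did not overlap between libraries for 1 of the 10, Celf4 (205 to 221 and 168 to 183 TPM), against 10.3% of all genes tested. The count among the 10 was near that share. That set reaches down to 10 counts, and the share among genes of like depth was not computed. These intervals cover the estimate within a library only, and their level is not stated.

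**Figure D5:**
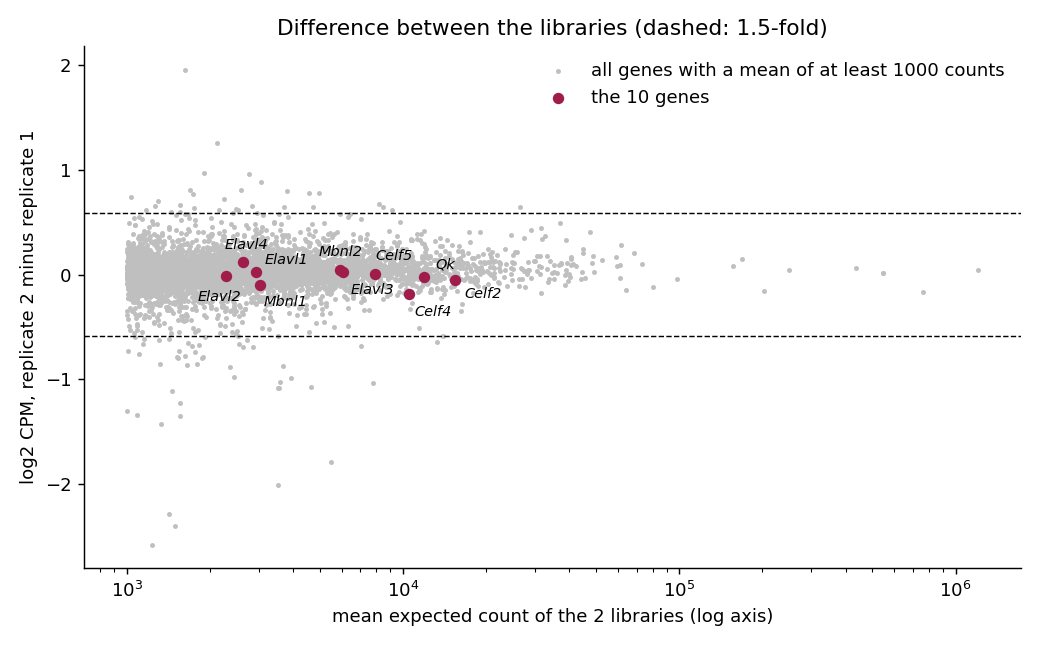
Log2 CPM in replicate 2 minus replicate 1 against the mean expected count (log axis), for the 5422 genes whose mean count was 1000 or more in grey and the 10 genes in red. All 10 lie between the dashed lines at 1.5-fold, with Celf4 lowest at -0.19 and Elavl4 highest at 0.12.

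Celf4 was lower in replicate 2, the library in which all 10 markers of striatal projection neurons were lower (median -1.95) and all 6 of excitatory cortical neurons were higher (median 0.29). Of 7 inhibitory neuron markers 5 were lower (median -0.33), 1 of them past 1.5-fold, and Vip (0.72) and Pvalb (0.60) were higher, both past it. The part of these cells in the Celf4 difference was not tested. Qk was nearly level at -0.03, although the 10 myelinating oligodendrocyte markers were all lower (median -0.56) and so were all 6 of oligodendrocyte precursors (median -0.24). Astrocyte markers had a median of -0.00, pan-neuronal markers of 0.03 and microglia markers of 0.05. The part of any cell type in the Qk level was not tested.

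Among mRNAs known as quaking targets, the myelin genes Mbp (489 and 317 TPM) and Mag (72.0 and 50.8 TPM) had log2 differences of -0.58 and -0.48 in depth-normalized counts, with Mbp at the edge of 1.5-fold; both are also oligodendrocyte markers. Cdkn1b, Hnrnpa1 and Map1b differed by -0.03 to 0.10. Among known targets of neuronal Elavl proteins, Fos, an activity-induced gene, was past 1.5-fold at 11.6 and 18.6 TPM, and Gap43, Bdnf and Mapt were not, with differences of -0.19 to 0.32. Among 8 relatives none passed 1.5-fold: Khdrbs3, a STAR protein related to quaking, was at 96.1 and 126 TPM, Celf3 at 89.6 and 94.2 TPM and Celf1 at 61.7 and 66.7 TPM, all below Celf2. None of 7 other AU-rich element binding proteins passed either. The decay factor Zfp36 was lowest of them at 1.31 and 1.52 TPM and Hnrnpd highest at 89.7 and 86.2 TPM. None of 8 other neuronal splicing regulators passed; Rbfox1, at 154 and 149 TPM, was near the level of Qk.

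The 3′ untranslated region was taken from the complete coding transcript with the highest TPM and was long in most of these genes. Among 9018 genes with a 3′ region of at least 500 nt the median was 1548 nt; Elavl1 had 4218 nt, Qk 3980 nt and Elavl3 3498 nt, whereas Celf2-211, with 846 nt, and Mbnl2-204, with 677 nt, were below the median. For Celf2 and Mbnl2 the transcripts with the most counts were others, Celf2-214 and Mbnl2-202, with 7381 and 2746 nt, so the short regions hold only for the transcripts chosen by TPM; for the other 8 genes both choices gave the same transcript. The pentamer ATTTA, the core of AU-rich elements, was counted on the transcript strand with overlaps allowed. Elavl2 had 15 matches, or 6.06 per kb, a density reached by 1.56% of the 9018 genes. Qk had 17 matches (4.27 per kb) and Elavl1 17 (4.03 per kb), and Celf5 had 1 (0.323 per kb), against a median of 1.52 per kb. The quaking hexamer ACTAAC matched 2 times in Qk itself and 1 time in Elavl1 and had no match in the other 8 regions. It matched 1 time each in the longer regions of Celf2-214 and Mbnl2-202, and 24.0% of the 9018 genes held at least 1. Its variant ACTAAT matched 1 time each in Qk, Mbnl1 and Celf2-211. In Celf2-211 this was 1.18 per kb, a density reached by 3.42% of genes. The longer regions had 2 matches of the variant in Celf2-214 and 1 in Mbnl2-202, and 27.8% of the 9018 genes held it. The motif TGTTTG matched 6 times in Elavl4 (2.31 per kb, a density reached by 4.41% of genes). Such matches describe letters only and do not show binding.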

How the data were processed

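Total RNA was measured in 2 libraries of 1 group. Per the file headers and the deposited description files, the authors derived a gene table and a first transcript table from transcriptome alignments on mm10 (GRCm38) with GENCODE M21, and a second transcript table directly from the reads. The deposited expected counts are estimated reads and not normalized. The deposited TPM values are scaled by length and to one total over all entries of a table, the spike-ins among them. The deposited FPKM values are scaled by length and by the assigned reads. The deposited percent of a gene's TPM in each transcript was used as given, and the deposited interval bounds of TPM have no stated level. Column names are those RSEM and kallisto write; which aligner and quantifiers were run, in which version and with what strand setting, were not given in the sources used here.

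Gene ratios are log2 of TPM + 0.1 within a library; neighbours were called apart where both libraries gave one order and the mean exceeded the SD. Differences between libraries used rounded expected counts, edgeR 4.0.16 under R 4.3.3 with TMM factors (1.0098 and 0.9903) and 2 as prior count, over genes that had 10 counts or more in either library; DESeq2 1.42.0 gave alternative size factors. With 1 library a side no test was made. Qk forms were told apart by stop codon and coding length. Sequences and gene models came from GENCODE M21, and identity from Biopython 1.88 alignments; other steps used Python 3.11.15, numpy 2.4.6, pandas 2.3.3 and matplotlib 3.10.9. The calculation of differences between libraries was tested on simulated counts, and the search for alternative exons on small simulated transcripts. The other calculations were not tested in this way.

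Transcripts were named if highest in their gene, at or above 20% in either library, or of a Qk form; those outside this rule (Elavl2-216, Mbnl2-201, Mbnl2-205, Mbnl1-210, Celf2-214 and Celf2-228) were chosen after their values were seen. Some listed target genes are not reported here. The genes and lists were chosen with earlier results of these data known. The comparison of 3′ regions by counts, the exon analysis, its limits (5 TPM, 5 to 95%) and the exons shown were also chosen after values were seen, and a first definition with fixed flanking exons was replaced by the present one, in which any annotated intron that spans the exon counts as skipping.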

Additional observations from a re-analysis of the deposited data

How the results depend on the processing

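Each of the 10 genes had at least 2221 counts in each library, whereas single transcripts could rest on under 100. All levels come from 1 group of 2 libraries, so nothing here separates animals from technical spread. No paired analysis was possible because there is only 1 group. The order of the genes was the same under rescaled TPM, FPKM, pseudocounts of 1 and 0.01 and in each library alone. It differed in the second transcript table, where Elavl4 and Elavl3 changed places on either side of Mbnl1. By mean TPM both thus also changed order with Mbnl1. With protein_coding transcripts only (for the order, chosen after seeing the data), Elavl3 passed Mbnl2 and Elavl2 passed Elavl4. In each setting with 2 libraries, 7 of 9 neighbouring pairs in the order of that setting were apart. A single library gives no SD and so no count of pairs apart. 2 ratios reversed, on the log2 scale: Elavl3 over Elavl4 was -0.272 in the second table, and Elavl2 over Elavl4 was 0.214 with protein_coding transcripts only. In the second table the ratios that moved by more than the SD were Elavl2 over Elavl1 (0.551), Elavl3 over Elavl1 (1.05), Elavl4 over Elavl1 (1.32), the neuronal sum over Elavl1 (2.59), Elavl2 over Elavl4 (-0.772), Celf4 over Celf5 (0.740), Mbnl2 over Mbnl1 (0.336) and Celf over Mbnl (1.86). With protein_coding transcripts only they were Elavl2 over Elavl1 (0.395), Elavl4 over Elavl1 (0.181), the neuronal sum over Elavl1 (2.25), Elavl3 over Elavl4 (1.02) and Qk over Mbnl2 (1.05). The neuronal sum over Elavl1, whose SD was only 0.0017, also moved to 2.37 with rescaled TPM or FPKM, 2.34 with a pseudocount of 1 and 2.38 with 0.01. The remaining 69 of 88 ratio values stayed within the SD, as single libraries of a pair always do.

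Shares of the Qk 5, 6 and 7 forms were 3.22%, 33.0% and 26.5% in the second table, 8.37%, 53.3% and 32.5% by expected counts, and 4.30%, 33.3% and 21.3% of protein_coding transcripts; single libraries gave 3.56 to 4.05%, 36.7 to 39.1% and 18.4 to 19.4%. The leading transcript was the same for 6 of 10 genes in the second table and for 7 by expected counts. Of 52 exon values, chosen after seeing the data, 13 moved by more than the SD. The 52 include values of single libraries, which always stay within the SD, so only the other settings could move. None of the 10 genes was past 1.5-fold in any of 7 alternatives, while the genes past it in all went from 2079 of 18965 to 369 of 12625 with a mean of at least 100 counts and 6582 of 28398 with no minimum, and 748 were past 2-fold. The cause of these shifts was not tested.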
